A study of Mus musculus with 6 samples.

Results

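The mitochondrial monoamine oxidase genes Maoa and Maob were examined by RNA sequencing in the mouse tumor Leydig cell line MA-10 and in STARKO1 cells. Both were found by symbol among the 14774 genes of the deposited count table, and they are the only 2 members of this gene pair. They were selected on their counts in these same libraries, where Maob differed widely between the lines and Maoa little, so their levels are described here without a test. MA-10 cells are an established steroid-forming line, labelled wild type. STARKO1 is a single-cell clone of MA-10 cells, labelled STAR KO, in which exon 2 of Star was targeted with CRISPR/Cas9. Both lines were untreated and grown in the same medium, and 3 libraries of total RNA were sequenced from each. Because 1 clone was compared with the parental line, differences due to the loss of Star and differences due to the choice of the clone cannot be told apart.

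Monoamine oxidases are flavoenzymes of the outer mitochondrial membrane that remove the amino group from monoamines by oxidation, and release an aldehyde, ammonia and hydrogen peroxide. MAOA prefers serotonin and noradrenaline, MAOB prefers phenylethylamine, and both take dopamine and tyramine. The aldehydes are then oxidised or reduced by other enzymes, and the peroxide is removed by catalase, peroxiredoxins and glutathione peroxidases. In the testis, Leydig cells are among the cells that carry amine-metabolising enzymes and adrenergic receptors.

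Maoa and Maob are paralogues that lie side by side on the X chromosome of mouse build GRCm38, tail to tail. In GENCODE M21, Maoa runs from 16619698 to 16687818 on the plus strand and Maob from 16709282 to 16817366 on the minus strand, with 21463 bp between them. Each has a coding transcript of 15 exons, Maoa-201 with 4167 bases and Maob-201 with 2411 bases. Their coding sequences, of 1578 and 1560 bases without the stop codon, were identical at 1100 of 1551 aligned bases (70.9%). The sequences below show how much the pair shares, which bears on whether reads of one gene could be counted for the other. The first lines give the coding stretch around the codon of the cysteine to which the flavin is bound, in capitals, which is codon 406 in Maoa and codon 397 in Maob.
Maoa: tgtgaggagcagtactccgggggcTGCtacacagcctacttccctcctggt
Maob: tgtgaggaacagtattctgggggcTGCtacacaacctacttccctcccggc
Shared run: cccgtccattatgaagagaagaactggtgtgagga
These stretches of 51 bases differed at 6 positions. The shared run of 35 bases is the longest that the listed transcripts of both genes have in common, and it lies in the coding sequence of each, at transcript positions 1308 to 1342 of Maoa-201 and 1229 to 1263 of Maob-201. Of 2838 different stretches of 30 bases in the Maob transcripts, 6 also occurred in Maoa. The values of both genes were whole numbers in all 6 libraries, although 54.2% of all genes in the table had a value that was not whole.

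The RefSeq promoter window of Maoa (GRCm38.p6, chrX:16619448-16619747, plus strand, from 250 bases before the start to 50 bases after it) is printed because Maoa was well expressed in both lines. The capitals mark matches to the GC box GGGCGG, searched on both strands.
Maoa promoter: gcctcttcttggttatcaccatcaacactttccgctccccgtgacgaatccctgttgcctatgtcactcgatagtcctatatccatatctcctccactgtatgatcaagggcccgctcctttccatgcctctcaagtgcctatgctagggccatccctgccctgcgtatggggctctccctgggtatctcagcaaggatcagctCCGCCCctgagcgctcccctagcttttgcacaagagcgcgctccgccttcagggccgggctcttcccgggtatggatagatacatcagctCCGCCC
The window held 2 GC boxes, a motif bound by SP1-type factors and present in 35.7% of all 32851 promoter windows of this length. The TATA box TATAAA had 0 matches and occurs in 13.6% of the windows. The Kruppel-like motif CACCC had 0 matches and occurs in 57.5%. The nuclear receptor motif AAGGTCA had 0 matches and occurs in 4.7%. The forkhead motif GTAAACA had 0 matches and occurs in 3.6%. Its GC content was 57.7%, against a median of 52.7% over all windows. Of the members, 1 of 2 was matched to the promoter table, and Maob was not.

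**Figure D1:**
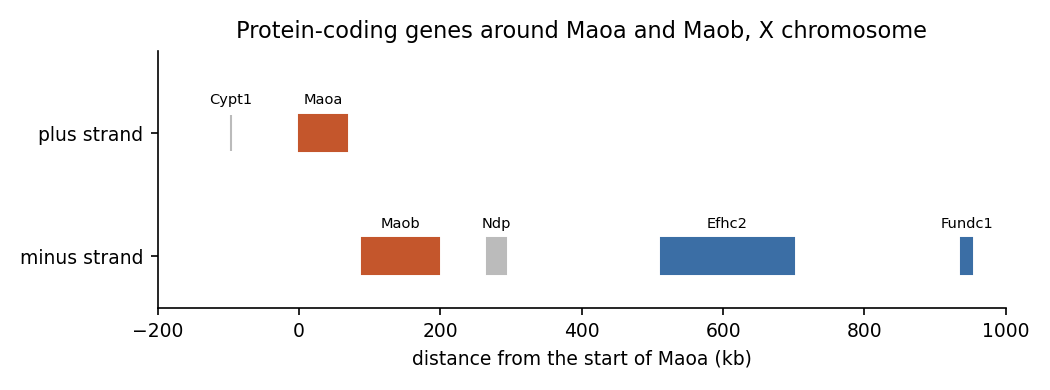
Protein-coding genes annotated by GENCODE M21 within 1 Mb of Maoa and Maob, by distance from the start of Maoa in kb (x axis) and by strand (y axis). Orange bars are Maoa and Maob, blue bars are the other genes with counts analysed here, Efhc2 and Fundc1, and grey bars are genes not analysed here.

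The total count per library lay between 14114349 and 19530054. The TMM factors that scale these totals were 1.16, 0.65 and 0.81 for MA-10 replicates 1, 2 and 3. They were 1.19, 1.18 and 1.17 for the STARKO1 replicates, and a lower factor gives a higher scaled level for the same count. As a check of the labels, Star had 1064, 1261 and 697 counts in MA-10 cells and 48, 46 and 36 in STARKO1 cells. MA-10 replicate 1 stood apart from the other MA-10 libraries. Pearson's r was taken on the log2 scale across genes with a mean log2 CPM above 3 (genes are no independent replicates). For this library it was 0.802 and 0.874 with the other MA-10 libraries, and between 0.949 and 0.955 with the STARKO1 libraries. Of the 14 Leydig cell markers all were in the table. Cyp11a1, the cholesterol side-chain cleavage enzyme, had a mean of 835.2 CPM (counts per 1000000 of the TMM-scaled library size) in the parental line and 438.7 CPM in the clone (edgeR adjusted p = 0.067). Of 13 markers tested, 2 were lower at an edgeR adjusted p under 0.05, Star and Hsd3b1, and 0 were higher (15.4%, against 9.04% of all tested genes). Star is the targeted gene, so its call was set by the design, and Hsd3b1 was the only other marker called. The share of 15.4% is therefore no sign of an excess among the markers. The log2 fold changes of the markers ran from -5.09 (Star) to 1.27, with a median of -0.11. Nothing in the labels says that the libraries of a line came from separate cultures, so p-values measure only the spread between these libraries, which may be technical.

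Maob RNA was low in MA-10 cells and close to the limit of detection in STARKO1 cells. It had 147, 80 and 115 counts in MA-10 replicates 1, 2 and 3 but only 5, 4 and 5 counts in STARKO1 replicates 1, 2 and 3. On the CPM scale this was 8.42, 6.94 and 10.1 CPM for MA-10 against 0.215, 0.236 and 0.281 CPM for STARKO1. The lines did not overlap, and the lowest MA-10 library was 24.7-fold above the highest STARKO1 library. MA-10 replicate 1, which resembled STARKO1 across genes, lay between the other MA-10 libraries for Maob.

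Maob averaged 8.49 ± 1.60 CPM in the parental line and 0.244 ± 0.0337 CPM in the clone (SD, n = 3 each), a 34.8-fold difference between means. From the summed counts, 342 against 14, the ratio was 35.1, with an exact 95% interval from 20.6 to 64.9. This interval covers counting error only, and the reads are not known to be independent molecules. A floor of 3 counts corresponded to 0.129 to 0.177 CPM in STARKO1 cells, so Maob was above it in every library. The log2 fold change estimated by edgeR was -5.09, beside -5.09 for Star, the targeted gene (standard error, SE, 0.331, edgeR adjusted p = 0.00121 for Star). In a comparison where 21.0% of the 11939 genes tested had every STARKO1 library below every MA-10 library, Maob was among those genes and Maoa was not. Both members passed the filter on low counts, Maob through its MA-10 libraries. In bulk RNA, fewer cells with Maob and less Maob RNA per cell cannot be told apart.

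**Figure D2:**
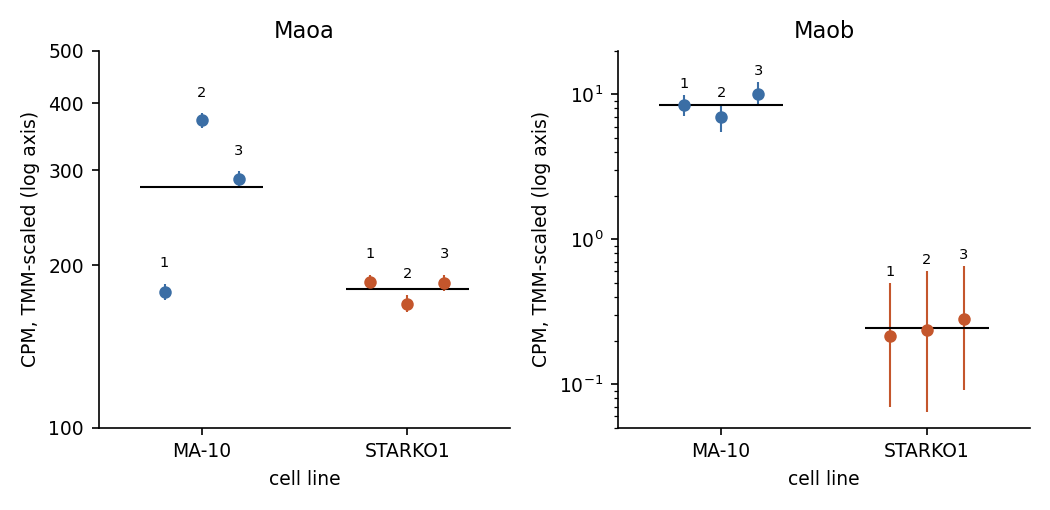
Level of Maoa (left) and Maob (right) in CPM on log axes, by cell line, with each library as a point numbered by replicate, its exact 95% Poisson interval as a bar and the mean of 3 libraries as a black line. MA-10 replicate 1 lies at the level of the STARKO1 libraries for Maoa (178.4 CPM) but with the other MA-10 libraries for Maob (8.42 CPM).

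Maoa was abundant in both lines. It had 3115, 4282 and 3280 counts in MA-10 replicates 1, 2 and 3 against 4335, 2882 and 3306 in the STARKO1 replicates. These counts gave 178.4, 371.4 and 288.8 CPM for MA-10 against 186.5, 169.9 and 185.7 CPM for STARKO1. The lines overlapped, because MA-10 replicate 1 lay within the range of the STARKO1 libraries while MA-10 replicates 2 and 3 lay above it.

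Maoa averaged 279.5 ± 96.8 CPM in the parental line and 180.7 ± 9.37 CPM in the clone (SD, n = 3 each). The difference between the means was 1.55-fold, and the SD in MA-10 cells was nearly as large as the difference. The log2 fold change estimated by edgeR was -0.63, and it was -0.09 when libraries were scaled by their size alone, a setting that moved the median of all genes by 0.43. Without MA-10 replicate 1 it was -0.78.

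The pair could be compared with each other after correction for length. As CPM per kilobase of annotated exons (RPKM), Maoa had 67.1 ± 23.2 RPKM in MA-10 cells and 43.4 ± 2.25 RPKM in STARKO1 cells (SD, n = 3 each). Maob had 3.05 ± 0.572 RPKM and 0.0875 ± 0.0121 RPKM (SD, n = 3 each). Maoa was therefore the main monoamine oxidase transcript in every library. Per length it was 14.2, 35.8 and 19.1 times as abundant as Maob in MA-10 replicates 1, 2 and 3, and 580.3, 482.2 and 442.5 times in the STARKO1 replicates.

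Each member was also ranked among the genes of the table in each library. Maoa was above 94.0% to 96.3% of the genes in each of the 6 libraries. Maob was above 40.8% to 46.4% of the genes in the MA-10 libraries and above 9.65% to 12.4% in the STARKO1 libraries.

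The share of Maob in the counts of the pair does not depend on how libraries are scaled. It was 4.51%, 1.83% and 3.39% in MA-10 replicates 1, 2 and 3, out of 3262, 4362 and 3395 for both genes. STARKO1 had 0.115%, 0.139% and 0.151% in replicates 1, 2 and 3, out of 4340, 2886 and 3311 counts. The 95% Wilson intervals, which cover counting error only, ran from 1.48% to 2.28% in MA-10 replicate 2 and from 3.85% to 5.27% in MA-10 replicate 1, so the libraries of 1 line differed by more than counting error too. Among the MA-10 libraries the share was lowest in replicate 2, where Maoa was highest and Maob lowest.

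**Figure D3:**
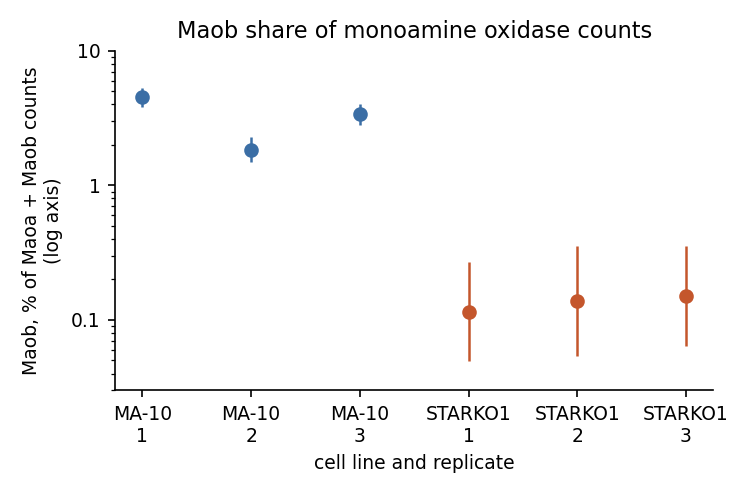
Counts of Maob as a percentage of the counts of Maoa and Maob together, on a log axis, for each library, with 95% Wilson intervals as bars. The MA-10 libraries lie between 1.83% and 4.51% and the STARKO1 libraries between 0.115% and 0.151%.

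The other genes around the pair were followed to see whether the low level of Maob extended along the chromosome. Of 6 protein-coding genes annotated within 1 Mb, Maoa and Maob included, 4 had counts analysed here. Efhc2, which encodes an EF-hand protein, had 6, 2 and 2 counts in MA-10 cells and 24, 20 and 7 in STARKO1 cells, too few to be tested. Fundc1, a mitophagy receptor of the outer mitochondrial membrane, had 13.1, 184.9 and 112.8 CPM in the MA-10 replicates and 12.3, 12 and 10.7 CPM in the STARKO1 replicates. For Fundc1 MA-10 replicate 1 was next to the STARKO1 libraries, and its log2 fold change was -3.14 (SE 0.833, edgeR adjusted p = 0.0600, and 1.15e-05 without MA-10 replicate 1). On the whole X chromosome 38 of 412 tested genes (9.22%) had an adjusted p under 0.05, called differentially expressed here, 21 higher (5.10%) and 17 lower (4.13%) in STARKO1 cells, against 1079 of 11939 genes (9.04%) in the genome.

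MAO proteins are held in the outer mitochondrial membrane by a C-terminal anchor. Maoa was therefore set beside a list of 21 genes for outer mitochondrial membrane proteins, most of them anchored in this way, though Tomm20, Mtch2 and Fundc1 are not. All 21 were tested, and 0 were differentially expressed (edgeR adjusted p between 0.0600 and 0.980), against 9.04% of all tested genes. At their summed level, they had 1724, 4007 and 2828 CPM in the MA-10 replicates and 1881, 1876 and 1764 CPM in the STARKO1 replicates. Maoa amounted to 10.3%, 9.27% and 10.2% of this sum in MA-10 cells and to 9.91%, 9.05% and 10.5% in STARKO1 cells. On that scale the log2 difference of Maoa between the lines was -0.02 and that of Maob was -4.67. The sum was not typical of the list, whose median log2 fold change was -0.21. Of the difference in the sum between the lines, 1012 CPM on average, 965.6 CPM came from 4 genes picked after their values were seen, the mitophagy receptors Bnip3 and Fundc1 and the import subunits Tomm7 and Tomm6. Against the other 17 genes Maoa amounted to 13.3%, 20.6% and 17.7% in the MA-10 replicates and to 11.8%, 11% and 12.2% in the STARKO1 replicates. The log2 difference was then -0.56 for Maoa and -5.10 for Maob, so the near-constant share of Maoa rested on those 4 genes. Without MA-10 replicate 1, 9 of the 21 genes were lower in STARKO1 cells and 0 were higher, in a fit where 31.7% of all genes were lower. At an unadjusted p under 0.05 the edgeR fit held 4 of the 21, against 37.6% of all genes, and DESeq2 called 4 of the 21 at its adjusted p, against 28.4% of all genes.

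**Figure D4:**
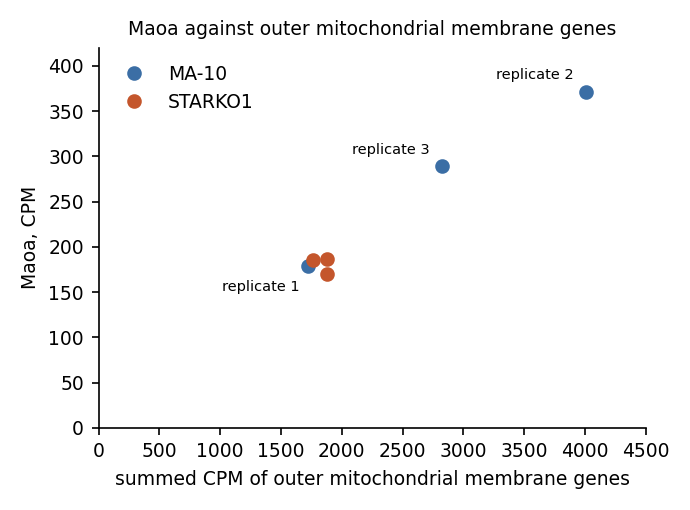
Level of Maoa in CPM (y axis) against the summed CPM of 21 outer mitochondrial membrane genes (x axis), each point a library, with MA-10 in blue and numbered and STARKO1 in orange. Maoa stays between 9.05% and 10.5% of the sum, most of whose difference between the lines came from 4 genes, and MA-10 replicate 1 lies with the STARKO1 libraries.

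To describe the genes that surround the monoamine oxidases in metabolism, 10 lists with 161 genes were drawn up by function, including the outer membrane list. Of these, 100 were in the table and 93 were tested. Differentially expressed genes numbered 9 (9.68%), 5 higher and 4 lower in STARKO1 cells, against 9.04% of all tested genes, of which 4.30% were higher and 4.74% lower. The share of the lists was thus near that of the whole table. The same 9.04% is the share to set beside the count of each single list. Their median log2 fold change was -0.26, against -0.05 over all genes. Without MA-10 replicate 1, 60 of the 93 genes (64.5%) were differentially expressed, against 65.7% of all genes. The 9 genes were among the 60. Hdc, Paox, Adra1d, Egr1 and Gata2 lost significance when any other library was left out. Aldh1a2, Aldh1a7 and Cat kept it without MA-10 replicate 1 or MA-10 replicate 2 and lost it without MA-10 replicate 3 or any 1 STARKO1 library. In that fit 22 of the 93 genes were higher (23.7%, against 34.0% of all genes) and 38 were lower (40.9%, against 31.7%).

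In the list for monoamine synthesis, which also holds genes for the pterin cofactor of the hydroxylases, 8 of 15 genes were in the table. Of these, 6 were tested and 1 was higher in STARKO1 cells. Hdc, the histidine decarboxylase that makes histamine, had 24.7, 11.6 and 14.7 CPM in the MA-10 replicates and 48.6, 42.5 and 59.0 CPM in the STARKO1 replicates. Every STARKO1 library was above every MA-10 library. The lines did not overlap, in either direction, for 42.5% of all tested genes. The log2 fold change of Hdc was 1.55 (SE 0.306, edgeR adjusted p = 0.0318), and with 1 library left out at a time it was significant in 1 of 6 fits. Th, Tph1, Tph2 and Dbh, enzymes of catecholamine and serotonin synthesis, were not analysed here, and Ddc, which forms dopamine and serotonin, had 3 to 14 counts in a library. The other 5 tested genes all serve the pterin cofactor, among them Qdpr, which regenerates it. They had edgeR adjusted p between 0.0895 and 0.483.

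Of 9 monoamine transporter genes, Slc18a1 (a vesicular monoamine transporter) was the only one in the table. It had 0 counts in every MA-10 library and 9, 6 and 3 in STARKO1 cells, and was not tested. Among 33 receptor genes 2 were in the table, and 1 of them was higher. Adra1d, an alpha-adrenergic receptor, had 2.18, 0.434 and 0.793 CPM in the MA-10 replicates and 5.29, 5.72 and 7.30 CPM in the STARKO1 replicates. Its log2 fold change was 2.35 (SE 0.519, edgeR adjusted p = 0.0416), significant in 1 of 6 leave-one-out fits. Adra1d passed the filter on low counts through its STARKO1 libraries. Drd4, a dopamine receptor, had 1.30 ± 0.512 CPM and 2.58 ± 0.111 CPM (SD, n = 3 each), with an edgeR adjusted p of 0.0899.

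Other routes of amine oxidation and inactivation held 1 differentially expressed gene. Of 17 genes listed as other amine oxidases, 12 were in the table, 10 were tested and 1 was lower. Ppox and Pcyox1, both among those tested, are not amine oxidases. Paox, which oxidises acetylated polyamines in peroxisomes, had 33.3, 83.0 and 60.0 CPM in the MA-10 replicates and 21, 22.8 and 24.2 CPM in the STARKO1 replicates. Paox had a log2 fold change of -1.37 (SE 0.324, edgeR adjusted p = 0.0481), significant in 1 of 6 leave-one-out fits. Loxl2, a secreted lysyl oxidase with the highest mean of the list over both lines, had 181.1 ± 77.2 CPM in the parental line against 182.2 ± 30.8 CPM in the clone (SD, n = 3 each). Of the genes for other inactivation of monoamines, 0 of the 3 tested passed in edgeR or DESeq2, with 1 at an unadjusted p under 0.05, against 37.6% of all genes.

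Enzymes that act on the aldehyde products held the lowest adjusted p among the lists. Of 19 genes, 17 were tested, 2 were higher and 1 was lower. Aldh1a1, a cytosolic aldehyde dehydrogenase that also makes retinoic acid, had 22.6, 16.8 and 18.7 CPM in the MA-10 replicates and 85.8, 78.8 and 81.6 CPM in the STARKO1 replicates. The lines were far apart, with MA-10 replicate 1 close to the other MA-10 libraries. The log2 fold change of Aldh1a1 was 2.08 (SE 0.172, edgeR adjusted p = 0.00228), significant in 6 of 6 leave-one-out fits. Aldh1a7, its close paralogue on chromosome 19, had a log2 fold change of 1.65 (SE 0.213, adjusted p = 0.00874) and passed in 2 of 6. The counts of Aldh1a1 were not whole in every library, and reads of these similar genes could have been divided between them, so the values of both are uncertain. Aldh1a2, a retinaldehyde dehydrogenase, was lower, with 8.56 ± 1.37 CPM in the parental line against 3.21 ± 0.182 CPM in the clone (SD, n = 3 each). Its log2 fold change was -1.41 (SE 0.208, edgeR adjusted p = 0.0142), significant in 2 of 6 leave-one-out fits. Aldh2, the mitochondrial enzyme best known for oxidising aldehydes from monoamines, had 403.1, 650.0 and 538.2 CPM in the MA-10 replicates and 339.5, 351.7 and 335.9 CPM in the STARKO1 replicates. Aldh2 had a log2 fold change of -0.63 (SE 0.228), a difference that was not significant (edgeR adjusted p = 0.0988). Adh7, an alcohol dehydrogenase and the most abundant gene of the list, had 1439 ± 486.6 CPM and 662.5 ± 23.5 CPM (SD, n = 3 each), with an adjusted p of 0.0623.

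Of 18 genes listed for hydrogen peroxide removal, 17 were tested and 1 was lower. The list also holds genes that do not remove peroxide themselves, such as Sod2, Gsr and Txn1. Cat, the peroxisomal catalase, had 257.7, 452.6 and 366.0 CPM in the MA-10 replicates and 107.2, 101.3 and 96.5 CPM in the STARKO1 replicates. The lowest MA-10 library was above the highest STARKO1 library, which held for 21.0% of all tested genes. Cat had a log2 fold change of -1.82 (SE 0.245, edgeR adjusted p = 0.0102), significant in 2 of 6 leave-one-out fits. Prdx1, a cytosolic peroxiredoxin, had 427.6, 2653 and 2038 CPM in the MA-10 replicates and 380.1, 384.0 and 402.7 CPM in the STARKO1 replicates. As for Maoa and Fundc1, MA-10 replicate 1 was nearer to STARKO1 than to the other MA-10 libraries, and Prdx1 was not significant (edgeR adjusted p = 0.0667, and 1.15e-05 without MA-10 replicate 1). The 4 tested genes that supply flavin, from the riboflavin transporter Slc52a2 to the mitochondrial folate and FAD carrier Slc25a32, had edgeR adjusted p between 0.178 and 0.783, with 0 at an unadjusted p under 0.05, against 37.6% of all genes, and 0 called by DESeq2, against 28.4%.

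Factors known to act on monoamine oxidase promoters made up the last list, of which 13 of 15 were tested, 1 was higher and 1 was lower. Sp3, a GC-box factor with the highest mean of the list over both lines, had 244.5 ± 32.8 CPM in the parental line against 177.5 ± 5.69 CPM in the clone (SD, n = 3 each), with an edgeR adjusted p of 0.110. Klf11, a Kruppel-like factor that acts on both genes, had 22.5 ± 5.99 CPM and 15.8 ± 1.36 CPM (SD, n = 3 each), with an adjusted p of 0.148. Egr1, an immediate-early factor, was lower, with 6.53, 17.3 and 9.25 CPM in the MA-10 replicates and 2.80, 3.3 and 1.97 CPM in the STARKO1 replicates. Its log2 fold change was -2.03 (SE 0.409, edgeR adjusted p = 0.0335), significant in 1 of 6 leave-one-out fits. Gata2, a zinc finger factor, had 3, 1 and 1 counts in MA-10 cells and 14, 14 and 20 in STARKO1 cells. From the summed counts, 5 against 48, its ratio of STARKO1 to MA-10 was 6.68, with an exact 95% interval from 2.67 to 21.5 for counting error only (edgeR adjusted p = 0.0278, significant in 1 of 6 leave-one-out fits). Gata2 passed the filter on low counts only through its STARKO1 libraries, and requiring 10 or more counts in each library left it out.

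**Figure D5:**
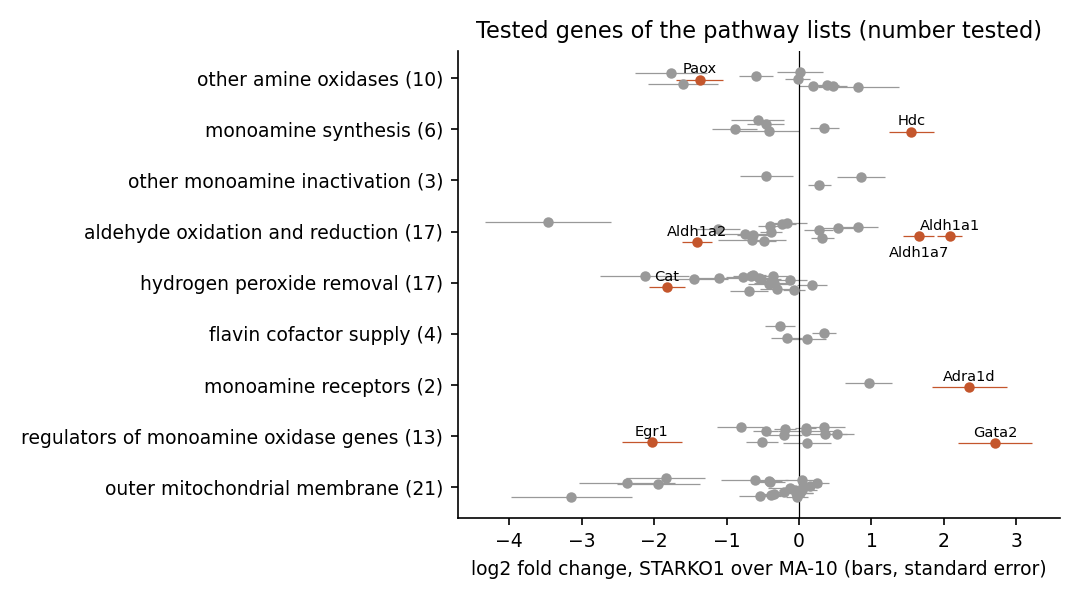
Log2 fold change of STARKO1 over MA-10 estimated by edgeR (x axis) for the 93 tested genes of the pathway lists, by list (y axis, with the number tested; points are shifted vertically at random), with standard errors as bars. Orange named points are the 9 differentially expressed genes, and grey points did not pass.

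Genes whose pattern over the 6 libraries was most like that of each member were found by the root mean squared difference of log2 CPM, centred over the libraries. The 5 nearest to Maoa were Ccnt2, Zfp948, Hadh, 0610009B22Rik and Rps6ka5, at 0.0440 to 0.0531, against a median of 0.553 over all tested genes. Hadh, a mitochondrial enzyme of fatty acid oxidation, had 202.5, 434.4 and 352.5 CPM in the MA-10 replicates and 213.5, 207.9 and 210.0 CPM in the STARKO1 replicates. In Hadh, as in Maoa, MA-10 replicate 1 was at the level of STARKO1. The higher CPM of MA-10 replicates 2 and 3 in both genes depends in part on their TMM factors of 0.65 and 0.81.

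The 5 nearest to Maob were Mreg, Cdhr3, Samd5, Serpinb6b and 1700030C10Rik, at 0.225 to 0.359, against a median of 2.28. Mreg, which encodes the organelle-transport protein melanoregulin, had 25, 17.6 and 31.1 CPM in the MA-10 replicates and 1.08, 1.36 and 1.12 CPM in the STARKO1 replicates. Cdhr3, a cadherin-related gene, had 31, 18 and 24 counts in MA-10 cells and 0 counts in every STARKO1 library, at least 11.5-fold lower against a floor of 3 counts in each library. None of these genes lies on the X chromosome. They were chosen for their likeness, so no test is given.

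Markers of other testis cells were read beside the Maob counts. Sertoli cell markers had 5 of 10 in the table, without Sox9, Amh, Wt1, Fshr and Cldn11. They summed to 692.1 to 776.8 CPM in MA-10 cells and 795.8 to 829.1 CPM in STARKO1 cells, nearly all of it from Rhox5 and Clu. Rhox5 and Clu went opposite ways, with means of 389.7 and 310.5 CPM in MA-10 cells against 558.9 and 230.2 CPM in STARKO1 cells. Neither was significant (edgeR adjusted p = 0.153 and 0.163). Of the 4 Sertoli cell markers tested, 0 were differentially expressed, against 9.04% of all tested genes. Germ cell markers had 2 of 10, Ddx4 and Kit, and summed to 107.0 to 212.5 CPM and 232.5 to 237.3 CPM. Kit made up nearly all of this sum, with 208.9, 121.6 and 104.8 CPM in the MA-10 replicates and 230, 234.4 and 232.2 CPM in the STARKO1 replicates. The difference in Kit was not significant (log2 fold change 0.68, SE 0.28, edgeR adjusted p = 0.128), and MA-10 replicate 1 was next to the STARKO1 libraries. Ddx4 was scarce and was not higher in STARKO1 cells, with a mean of 3.02 CPM (MA-10) against 2.43 CPM (STARKO1). Its libraries overlapped between the lines (log2 fold change -0.32, SE 0.29, edgeR adjusted p = 0.433). Macrophage markers had 3 of 7, with 5.38 to 10.1 CPM and 6.66 to 8.69 CPM. Peritubular myoid markers had 3 of 6, without Acta2, at 153.5 to 255.2 CPM and 129.4 to 135.5 CPM, and Des moved with Maob (log2 fold change -3.00, SE 0.316, edgeR adjusted p = 0.00499). Endothelial markers had 2 of 8, Pecam1 and Cdh5, at 26.4 to 41.5 CPM and 118.2 to 124.0 CPM, and Cdh5 moved the opposite way (log2 fold change 1.84, SE 0.204, adjusted p = 0.00596). The part of Des and Cdh5 in the level of Maob was not tested.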

How the data were processed

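The authors deposited estimated counts per gene, not normalized and with 1 column for each of 3 MA-10 and 3 STARKO1 libraries of total RNA, prepared with a stranded kit. The submitters' processing notes name STAR 2.6.1d, Partek and build mm10, without roles, and filters and annotation are not given in the sources used here. The lowest total of a gene over the libraries was 10 counts. Columns were matched to libraries by name. Of the genes, 14677 were found in GENCODE M21 (GRCm38) by symbol and chromosome, 14634 with the same start, and the ends in the table lay 1 base past those of GENCODE for the monoamine oxidase genes.

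These values were rounded to integers before the fit with edgeR 4.0.16 in R 4.3.3 (filterByExpr, TMM, quasi-likelihood test, Benjamini-Hochberg adjustment over all 11939 genes tested, threshold 0.05). The standard error is the log2 fold change divided by the square root of F. RPKM used the union of exons. The study's methods give a general test for all data and name no method specific to counts across genes, for which a count model was used here. Values were taken with Python 3.11.15, pandas 2.3.3, scipy 1.17.1 and Biopython 1.88. Promoters came from RefSeq (GRCm38.p6). The fit was tested on counts simulated with a common dispersion and no deviant library. There it recovered 96.9% of 4-fold changes but 32% of 2-fold changes, and 3.88% of its calls were false. These rates need not hold in the data, where MA-10 replicate 1 stood apart.

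Genes named are Maoa, Maob, Star, genes of the lists, genes within 1 Mb, and the 5 nearest in pattern (prior count 2). Members and lists were chosen with earlier results of these data known. Alternatives were DESeq2 1.42.0, other scalings and filters, a replicate block, leaving out each library, and outer membrane genes as the scale. Total counts of 14114349 to 19530054 leave little counting error for Maoa, whereas Maob in STARKO1 cells rests on 14 counts. Protein sequences were not used here. The values of 1 gene of the lists are not reported here.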

Additional observations from a re-analysis of the deposited data

How the results depend on the processing

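The direction and size of the Maob difference (log2 -5.09) were kept under every alternative that gave a value, between -5.22 and -4.91 when each library was left out. It moved to -4.67 with scaling by library size alone and to -4.67 relative to the outer membrane genes, scales that shift all genes, and requiring 10 or more counts in each library left Maob out. The Maoa difference (-0.63) lay between -0.78 and -0.37 when each library was left out and was -0.02 relative to the outer membrane genes, but -0.56 (Maob -5.10) once Bnip3, Tomm7, Tomm6 and Fundc1 were left out of that scale, a choice made after seeing the data. The replicate block gave a log2 difference of -5.08 for Maob and -0.57 for Maoa.

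The count of differentially expressed genes, 1079, was 330 with library size alone, 695 with at least 10 counts in every library, 3395 with DESeq2, and 89 (without STARKO1 replicate 1) to 7990 (without MA-10 replicate 1) when each library was left out. For the pathway lists, 9 genes became 3 with library size alone, 27 with DESeq2 and 1 to 60 when each library was left out, 1 without MA-10 replicate 3 or any 1 STARKO1 library and 60 without MA-10 replicate 1. The 9 genes were among the 27 and the 60. With the replicate block 234 genes were differentially expressed, 3 of them in the lists (Aldh1a1, Aldh1a7 and Cat). Same-numbered libraries did not deviate together across genes with a mean log2 CPM above 3 (correlations -0.0346, 0.0907 and -0.0162). Of the 6 libraries, 2 were closest to their own number. For the 9 genes and Star, 66 of 118 alternative fits kept the call, 52 lost it and 0 turned the direction. Apart from the fewer libraries in the leave-one-out fits and the shifted scales, the cause of these moves was not tested. Depth limits Maob in STARKO1 cells, where a library held 4 or 5 counts.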
